A study of Mus musculus with 56 samples.

Results

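Krüppel-like factors (KLFs) are zinc finger transcription factors, and 8 of their genes are described here in mouse heart: Klf15, Klf9, Klf13, Klf10, Klf11, Klf2, Klf4 and Klf6. They were chosen by symbol among the 22864 genes with values, and each had 1 row. The animals were C57BL/6J females of 9 weeks, an inbred strain, on a cycle of 12 h light and 12 h dark. Over 7 days food was offered only by day, called DRF for daytime-restricted feeding, or only by night, called NRF for nighttime-restricted feeding and taken as the reference for a nocturnal animal. Hearts were taken every 4 h from zeitgeber time (ZT, hours after lights on) 0 to 24, with 4 polyA RNA-seq libraries for each of the 14 groups, 56 in all. No genotype, drug or transgene was involved, and each regimen moves food alone while the light cycle stays. The comparison asks whether a transcript kept its time of day, followed the food, or lost its rhythm when feeding was moved to the rest phase.

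KLFs bind GC-rich and CACCC-type sequences through 3 zinc fingers at the carboxyl end, and their other domains recruit activators or repressors. KLF15 is a regulator of lipid and amino acid use in heart and skeletal muscle and is known as an output of the circadian clock and a target of the glucocorticoid receptor. KLF9 and KLF13 are close relatives that share a GC-box binding domain with a SIN3-type repressor contact, and KLF9 responds to glucocorticoids. KLF10 and KLF11 were first described as early genes of transforming growth factor beta (TGF-beta). KLF2, KLF4 and KLF6 are made in endothelium and other cells, KLF2 and KLF4 being flow-responsive factors of the vessel wall, and many stimuli induce them rapidly.

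The promoters of 7 of the 8 genes had an entry among the RefSeq windows (GRCm38.p6, 250 bases before to 50 after the start), all but that of Klf10. They are shown because the clock proteins BMAL1 and CLOCK bind the E-box CACGTG, so the letters tell which of these genes carry that motif close to the start. An E-box (same letters on both strands) stood in 7.15% of all 32851 windows, and in those of Klf15, Klf4, Klf6 and Klf11. Klf15 held 3, and 0.0883% of windows held 3 or more. The 250 bases before the start of Klf15 (chr6:90462326-90462575, plus strand) follow, with E-boxes in capitals. The last 3 letters are the first letters of the third E-box, which crosses the start.
Klf15: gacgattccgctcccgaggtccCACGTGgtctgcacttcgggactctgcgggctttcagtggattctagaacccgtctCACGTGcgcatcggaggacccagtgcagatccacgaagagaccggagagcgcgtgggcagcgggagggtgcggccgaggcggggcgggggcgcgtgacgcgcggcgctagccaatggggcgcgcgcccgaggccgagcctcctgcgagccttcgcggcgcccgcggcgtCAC
The third Klf15 E-box (chr6:90462563-90462588, plus strand) and those of Klf4 (chr4:55532642-55532667, minus strand), Klf6 (chr13:5861436-5861461, plus strand) and Klf11 (chr12:24651147-24651172, plus strand) are set beside each other with 10 bases on each side.
Klf15 E-box at the start: cccgcggcgtCACGTGagcggccgga
Klf4 E-box: cccccgccccCACGTGcgcggagttt
Klf6 E-box: ccaagctggtCACGTGgggggagaag
Klf11 E-box: cggaccaaaaCACGTGccgccgcccg
Klf9 lacked the E-box letters in this window and held the forkhead letters GTAAACA, which on either strand occur in 3.65% of windows. That site (chr19:23141118-23141140, plus strand) overlapped none of the other motifs searched.
Klf9 forkhead letters: gggagaaaGTAAACAgagttgaa
The D-box (TTATGNAA, 3.38% of windows), the ROR element (TAGGTCA, 2.61% of windows), both searched on either strand, and the palindromic glucocorticoid element (0.00913% of windows) were in 0 of the 7 windows. GC boxes (GGGCGG, 35.7% of windows) were in 6 of 7, all but that of Klf9. A match is a stretch of letters and not a measured binding site.

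**Figure D1:**
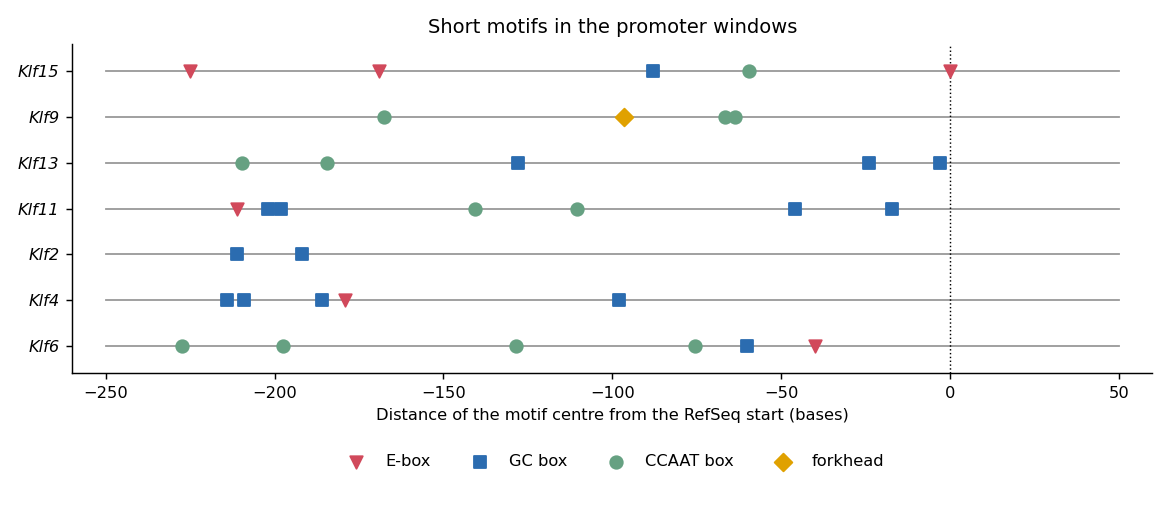
Positions of 4 short motifs in the promoter windows of 7 genes, as the distance in bases of the motif's centre from the RefSeq start (dotted line), searched on both strands. Klf15 carries 3 E-boxes, Klf4, Klf6 and Klf11 carry 1 each, and Klf9, Klf13 and Klf2 carry 0.

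Depth ranged from 29656097 to 53656948 recovered reads per library, and the median read count of the 8 genes lay between 639 (Klf11) and 4506.5 (Klf9), so counting error was small beside the spread between hearts. Cardiomyocyte markers were abundant in all libraries (summed 17711 to 29775 TPM over 6 genes), while 2 skeletal muscle markers with values, of 4 looked for, summed to at most 3.57 TPM. Atrial markers (94.5 to 5449 TPM over 4 genes) and haemoglobin genes (1652 to 66032 TPM over 4 genes) differed widely between libraries. Over 1082 genes with a different rhythm between regimens, the KLF genes and clock genes left out, a pair of libraries stood apart. The library labelled DRF ZT4 replicate 1 correlated at r = -0.24 with the rest of its own group and at 0.79 with NRF ZT8. The library labelled NRF ZT8 replicate 1 correlated at r = -0.14 with its own group and at 0.74 with DRF ZT4. The other 54 libraries correlated at 0.47 to 0.93 with their own groups. The nearest group was the own group for 48 of the 56 libraries, and for 52 with ZT0 and ZT24 taken as one. NRF ZT4 replicate 1 was nearer to NRF ZT0 (0.58, against 0.48 with its own group). NRF ZT4 replicate 3 was nearer to DRF ZT24 (0.62, against 0.55). The 1082 genes were chosen by a test that used the labels, which favours own groups. Both libraries that stood apart were kept under their labels. Whether these labels were exchanged was not tested, and calls that change without both libraries are given both ways. The labels do not say that replicates are separate litters or days, so p-values measure the spread between these hearts.

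Levels are given as TPM (reads per base of exon, scaled to the same sum in each library), which allows genes to be compared per length. Klf2 had the highest mean over 56 libraries at 119.6 TPM (66.8 to 212.5), followed by Klf9 at 86.7 TPM. Klf4 at 51.5 TPM and Klf6 at 51.2 TPM were next, and these neighbours did not differ beyond their spread (27.8 to 87.9 and 32.4 to 70.0 TPM). Klf15 averaged 36.6 TPM (14.5 to 76.8) and Klf13 19.99 TPM (14.6 to 33.4). Klf10 at 12.9 TPM and Klf11 at 9.06 TPM were lowest, with overlapping ranges of 5.83 to 25.2 and 4.91 to 15.3 TPM. In whole heart, a change in RNA per cell cannot be told apart from a change in the number of cells that make it.

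**Figure D2:**
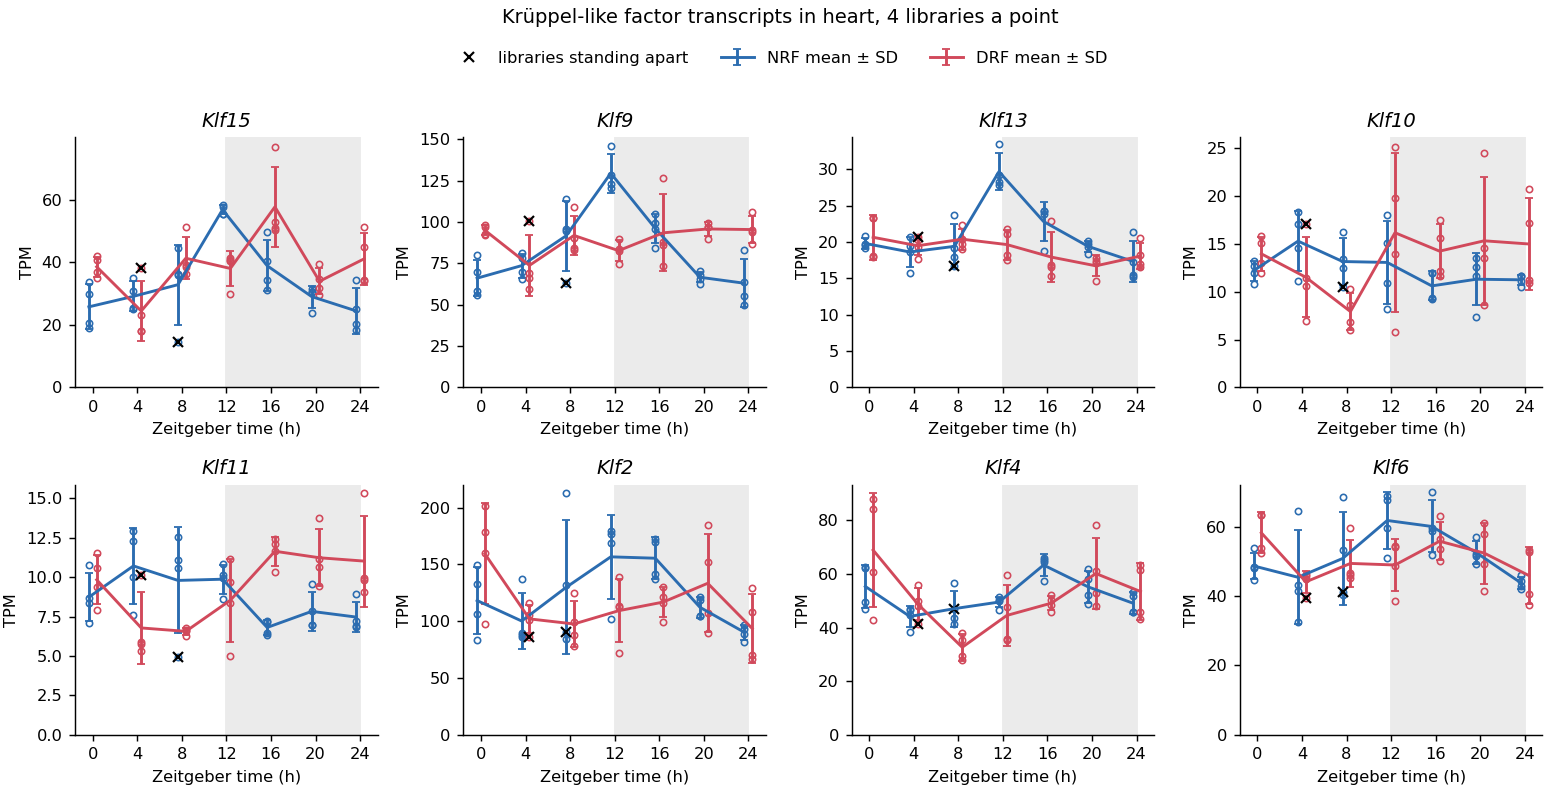
Level in TPM of the 8 genes against zeitgeber time, each circle a library, lines joining group means with SD (n = 4), blue for NRF and red for DRF, the dark phase shaded, and crosses on the libraries labelled DRF ZT4 replicate 1 and NRF ZT8 replicate 1. Klf15, Klf9 and Klf13 share a high point at ZT12 under NRF that is lower in every DRF library at that time, and Klf11 runs high by day under NRF and high by night under DRF.

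A 24 h curve was fitted to log2(TPM + 1) in each regimen, and its amplitude is the log2 distance from the mean to the peak. Under NRF, 7 of the 8 genes were rhythmic at an adjusted p under 0.05, against 37.4% of 13879 genes tested, and Klf10 did not pass (adjusted p = 0.0814). Under DRF, 3 were rhythmic (Klf4, Klf11 and Klf15) against 32.5% of genes tested. The median amplitude of the 8 genes was 0.25 under NRF and 0.26 under DRF, where all genes had 0.10 in each. Curves were then compared in clock time (ZT against ZT) and in food time (the DRF curve moved by 12 h, so that the hours since feeding began were matched). In clock time 5 of 8 differed (Klf4, Klf9, Klf10, Klf11 and Klf13), against 27.6% of genes. In food time 5 of 8 differed (Klf4, Klf6, Klf9, Klf13 and Klf15), against 41.4% of genes. Without both libraries that stood apart, Klf10 became rhythmic under NRF (8 of 8, against 42.9%), and Klf2 and Klf15 joined those that differed in clock time (7 of 8, against 30.6%), while the same 3 genes were rhythmic under DRF (against 30.1%). Without the ZT12 libraries 4 genes were rhythmic under NRF (Klf2, Klf4, Klf6 and Klf9, against 24% of genes), and without those of ZT16 also 4 (Klf6, Klf9, Klf13 and Klf15, against 26.2%). Leaving out ZT16 also left 3 clock-time calls (Klf9, Klf11 and Klf13, against 21.3%).

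**Figure D3:**
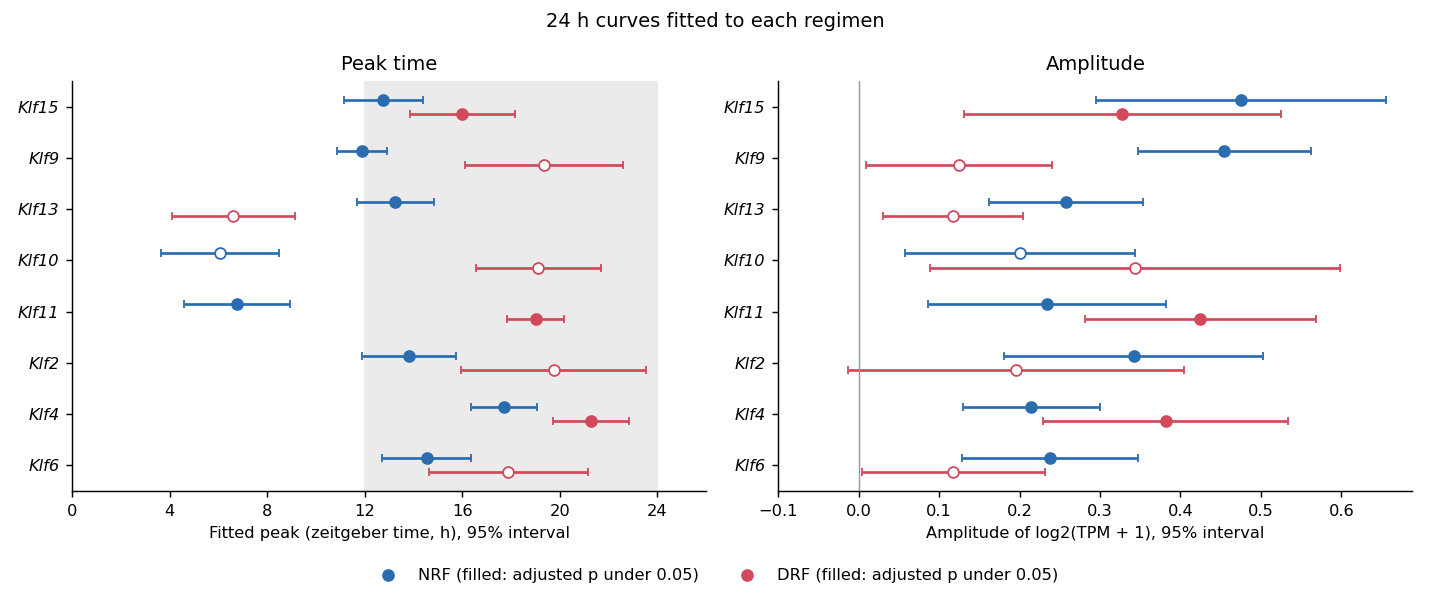
Fitted peak time (left, zeitgeber time in h, dark phase shaded) and amplitude of log2(TPM + 1) (right) of the 8 genes under NRF (blue) and DRF (red), with 95% intervals, filled where the rhythm passed an adjusted p of 0.05. Klf10 and Klf11 peak by day under NRF and near ZT19 under DRF, Klf15 and Klf4 peak a few hours later under DRF, and Klf9 and Klf13 have smaller DRF amplitudes that did not pass.

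Klf15, the gene of the metabolic regulator, was rhythmic under both regimens, less firmly under DRF, and its fitted peak moved by a few hours. Under NRF the hearts at ZT12 read 57.8, 55.5, 58.5 and 55.6 TPM, and those at ZT24 read 34.4, 20.1, 18.2 and 24.99 TPM. The ZT12 values were tight and above every other NRF value of the gene. Under DRF the high point was at ZT16 (76.8, 50.4, 52.7 and 51.0 TPM) and the low point at ZT4 (38.3, 18.1, 18.1 and 23.2 TPM), where the 38.3 is the library that stood apart. One ZT16 heart was thus far above the other 3, which themselves were above all NRF hearts at ZT16 (31.2 to 49.8 TPM). The amplitude was 0.48 ± 0.09 under NRF (SE, adjusted p = 0.000736) and 0.33 ± 0.10 under DRF (adjusted p = 0.0370). The fitted peak moved from ZT12.8 to ZT16.0, later by 3.24 h (95% interval 0.538 to 5.94 h), an interval that does not reach the 12 h by which food moved. The shift was 4.16 h (1.90 to 6.42 h) without both libraries that stood apart. In food time the curves differed (adjusted p = 9.73e-05), while in clock time they did not pass (adjusted p = 0.112), although an F test over ZT means with all libraries did (adjusted p = 0.00545).

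At single times the Klf15 difference was positive at ZT0, ZT8, ZT16, ZT20 and ZT24 and negative at ZT4 and ZT12, and the ZT8 value of 0.42 was 0.08 without both libraries that stood apart. At ZT24 the DRF hearts (44.8, 34.5, 51.1 and 34.0 TPM) were above those of NRF by 0.75 ± 0.22 on the log2 scale (SE, adjusted p = 0.0270), with an overlap of 1 NRF heart at 34.4 TPM. At ZT12 the DRF hearts (41.4, 40.7, 29.7 and 40.3 TPM) were all below those of NRF, with a log2 difference of -0.58 ± 0.22 that did not pass (adjusted p = 0.0994). At ZT0 and ZT16 all DRF hearts were above all NRF hearts, again without passing (log2 differences 0.60 and 0.56, adjusted p = 0.0706 and 0.113). Without both libraries that stood apart the ZT0, ZT12 and ZT16 differences passed (adjusted p = 0.0135, 0.0234 and 0.0328), and the clock-time difference did so too (adjusted p = 0.00788). Leaving out NRF ZT8 replicate 1 alone was enough for the clock-time, ZT0 and ZT12 calls, as was NRF ZT0 replicate 1 for ZT0. The DRF rhythm was also lost without the ZT4 libraries (amplitude 0.14, adjusted p = 0.404), without those of ZT16 (0.17, adjusted p = 0.563) and with the score of endothelial markers (8 genes) in the model (0.23, adjusted p = 0.166), and the NRF rhythm without ZT12 (0.32, adjusted p = 0.102). The DRF rhythm was lost without any 1 of 7 libraries (DRF ZT4 replicates 2, 3 and 4 and DRF ZT16 replicates 1 to 4, adjusted p up to 0.103), and the ZT24 difference without DRF ZT24 replicate 1 or 3 or NRF ZT24 replicate 2 or 3 (up to 0.129). Without replicate 1, 2 or 4 of every group the DRF rhythm was lost (0.0949, 0.203 and 0.118), as with no filter on low values (0.0559). Without replicate 2 or 3 the ZT24 difference was lost (0.75 and 0.52, adjusted p = 0.109 and 0.371).

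Klf9, a GC-box factor induced by glucocorticoids, had a peak at ZT12 under NRF and a smaller amplitude under DRF, where no rhythm passed. At ZT12 the NRF hearts read 146.2, 120.2, 128.3 and 123.0 TPM and the DRF hearts 74.8, 83.9, 82.1 and 89.7 TPM. No DRF heart reached any NRF heart at this time, a log2 difference of -0.64 ± 0.14 (SE, 1.56-fold lower, adjusted p = 0.00436). The order was the other way round at the end of the night. At ZT20 the DRF hearts (89.6, 97.1, 97.1 and 99.1 TPM) were all above those of NRF (67.7, 62.7, 70.0 and 65.7 TPM), by 0.52 ± 0.14 (adjusted p = 0.0117). At ZT24 the DRF hearts (86.3 to 106.1 TPM) were again above those of NRF (49.9 to 83.0 TPM), by 0.62 ± 0.14 (adjusted p = 0.00508). At ZT0 the values were 91.8 to 98.2 against 55.9 to 79.8 TPM, a difference of 0.53 ± 0.14 (adjusted p = 0.0112). That last call was lost without NRF ZT0 replicate 3 (adjusted p = 0.0649). Without replicate 3 of every group the ZT0, ZT12, ZT20 and ZT24 calls of Klf9 were lost (adjusted p = 0.0610 to 0.154). The log2 differences were then 0.47, -0.64, 0.54 and 0.51, and the genes called at ZT12 fell from 1057 to 88. Without replicate 2 the calls at ZT0, ZT20 and ZT24 were lost (0.102 to 0.112), with differences of 0.47, 0.48 and 0.52.

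The amplitude of Klf9 was 0.45 ± 0.05 under NRF (SE, adjusted p = 1.36e-06), with a peak at ZT11.9 ± 0.523 h. Under DRF it was 0.12 ± 0.06 and did not pass (adjusted p = 0.221), while without the ZT8 libraries it was 0.24 and passed (adjusted p = 0.0339). The DRF amplitude was lower by 0.33 ± 0.08 on the log2 scale. The curves differed in clock time (adjusted p = 7.56e-06) and in food time (adjusted p = 8.70e-05), so neither the old nor a 12 h moved course described DRF. Without both libraries that stood apart the NRF amplitude was 0.49 ± 0.05 and the clock-time adjusted p 1.61e-07. The mean level over the day, 89.6 TPM under DRF and 83.7 TPM under NRF, did not differ past the test (log2 difference 0.07, 95% interval -0.05 to 0.18).

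Klf13, the close relative of Klf9, also had its high NRF value at ZT12 and was the one gene of the 8 called for its mean level. Its NRF hearts at ZT12 read 33.4, 27.8, 29.2 and 28.3 TPM, and its DRF hearts 18.3, 21.7, 17.5 and 21.1 TPM. The groups were well apart, with a log2 difference of -0.57 ± 0.11 (SE, 1.49-fold lower, adjusted p = 0.000876). At ZT16 NRF read 18.8, 24.3, 24.3 and 23.8 TPM and DRF 22.9, 16.9, 16.6 and 15.3 TPM, and here 1 heart in each group crossed over. The ZT16 difference of -0.34 ± 0.11 passed narrowly (adjusted p = 0.0444) and was lost without any 1 of the 6 hearts that did not cross, DRF and NRF ZT16 replicates 2, 3 and 4 (adjusted p up to 0.242). Klf13 was rhythmic under NRF with an amplitude of 0.26 ± 0.05 and a peak at ZT13.3 (adjusted p = 0.000598). Under DRF the amplitude was 0.12 ± 0.04 and did not pass (adjusted p = 0.104), though it passed without DRF ZT16 replicate 1 (adjusted p = 0.0267), without ZT0 (0.0366) and with a score of immediate early genes in the model (amplitude 0.16, adjusted p = 0.0135). The ZT12 call was lost without replicate 3 of every group (log2 difference -0.53, adjusted p = 0.0693). The curves differed in clock time (adjusted p = 0.00189) and in food time (adjusted p = 0.00252). Without ZT12 the NRF rhythm and the food-time difference were lost (adjusted p = 0.0829 and 0.382), and without replicate 3 of every group the clock-time difference was (adjusted p = 0.0739).

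Of Klf10 and Klf11, both early genes of TGF-beta, Klf11 was high by day under NRF and by night under DRF, and Klf10 had fitted peaks at similar times without a rhythm that passed. For Klf11 the NRF hearts read 6.34, 6.48, 7.24 and 7.17 TPM at ZT16, against 10.3, 12.4, 11.7 and 12.1 TPM under DRF. Each DRF heart was above each NRF heart, by 0.69 ± 0.19 on the log2 scale (SE, 1.62-fold, adjusted p = 0.0209). By day the order turned. At ZT8 the DRF hearts read 6.24, 6.67, 6.58 and 6.76 TPM and the NRF hearts 10.6, 11.1 and 12.55 TPM, beside 4.91 TPM in the NRF library that stood apart. At ZT4 the DRF values were 5.89, 5.74 and 5.32 TPM, beside 10.2 TPM in the DRF library that stood apart, and the NRF values 10.03, 7.61, 12.3 and 12.9 TPM. With all libraries the ZT4 and ZT8 differences (-0.61 and -0.45) did not pass (adjusted p = 0.147 and 0.270). Without both libraries that stood apart they were -0.79 ± 0.16 and -0.71 ± 0.16 and passed (adjusted p = 0.00222 and 0.00988), as did ZT20 (0.47, adjusted p = 0.0270) and ZT24 (0.48, adjusted p = 0.0315). Of these, the ZT4 call needed only DRF ZT4 replicate 1 left out, and the ZT8 and ZT20 calls only NRF ZT8 replicate 1.

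The Klf11 curve peaked at ZT6.77 ± 1.10 h under NRF and at ZT19.0 ± 0.592 h under DRF, a move of 12.2 h (95% interval 9.79 to 14.7 h). In clock time the curves differed (adjusted p = 2.74e-05), and in food time they did not pass (adjusted p = 0.310). The amplitude was 0.42 ± 0.07 under DRF (adjusted p = 0.000299) and 0.23 ± 0.08 under NRF, where the adjusted p of 0.0444 was close to the threshold. The NRF call was lost without any 1 of 22 of the 28 NRF libraries, all but ZT0 replicates 1 and 4, ZT4 replicate 2, ZT8 replicate 1, ZT20 replicate 1 and ZT24 replicate 1 (adjusted p up to 0.0972). Without both libraries that stood apart it was 0.32 ± 0.06 (adjusted p = 0.000296), and the move was 11.7 h (10.2 to 13.3 h). The ZT16 call was lost without DRF ZT16 replicate 2 or 4 or NRF ZT16 replicate 2 (adjusted p up to 0.0860). It was also lost without replicate 2, 3 or 4 of every group (log2 differences 0.64, 0.72 and 0.70, adjusted p = 0.140, 0.116 and 0.127).

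Klf10 had more spread. At ZT8 its DRF hearts read 10.3, 8.63, 6.79 and 5.98 TPM and its NRF hearts 10.5, 16.3, 13.4 and 12.4 TPM, so that the groups did not overlap. The heart with 10.5 TPM was NRF ZT8 replicate 1, a library that stood apart, and the other NRF hearts lay between 12.4 and 16.3 TPM. At ZT12 the DRF hearts ran from 5.83 to 25.2 TPM and at ZT20 from 8.64 to 24.6 TPM, overlapping the NRF hearts (8.19 to 18.1 and 7.41 to 13.6 TPM). The fitted peaks were at ZT6.08 ± 1.23 h under NRF and ZT19.1 ± 1.31 h under DRF, although neither rhythm passed (adjusted p = 0.0814 and 0.103). The amplitudes were 0.20 ± 0.07 and 0.34 ± 0.13. The difference in clock time passed (adjusted p = 0.0198) and that in food time did not (adjusted p = 0.649). The clock-time call was lost with an F test over ZT means (adjusted p = 0.122), without replicate 2, 3 or 4 of every group (up to 0.205) and without ZT4, ZT8 or ZT16 (up to 0.195). The Klf10 contrast passed at 0 of the 7 times, the smallest adjusted p being 0.241 at ZT8. Its NRF rhythm passed without NRF ZT8 replicate 1 (adjusted p = 0.0362). Its DRF rhythm passed without the ZT12 libraries (adjusted p = 0.0149), and without DRF ZT12 replicate 2 or DRF ZT20 replicate 3 (adjusted p down to 0.0387), the hearts with the 25.2 TPM and the 8.64 TPM.

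**Figure D4:**
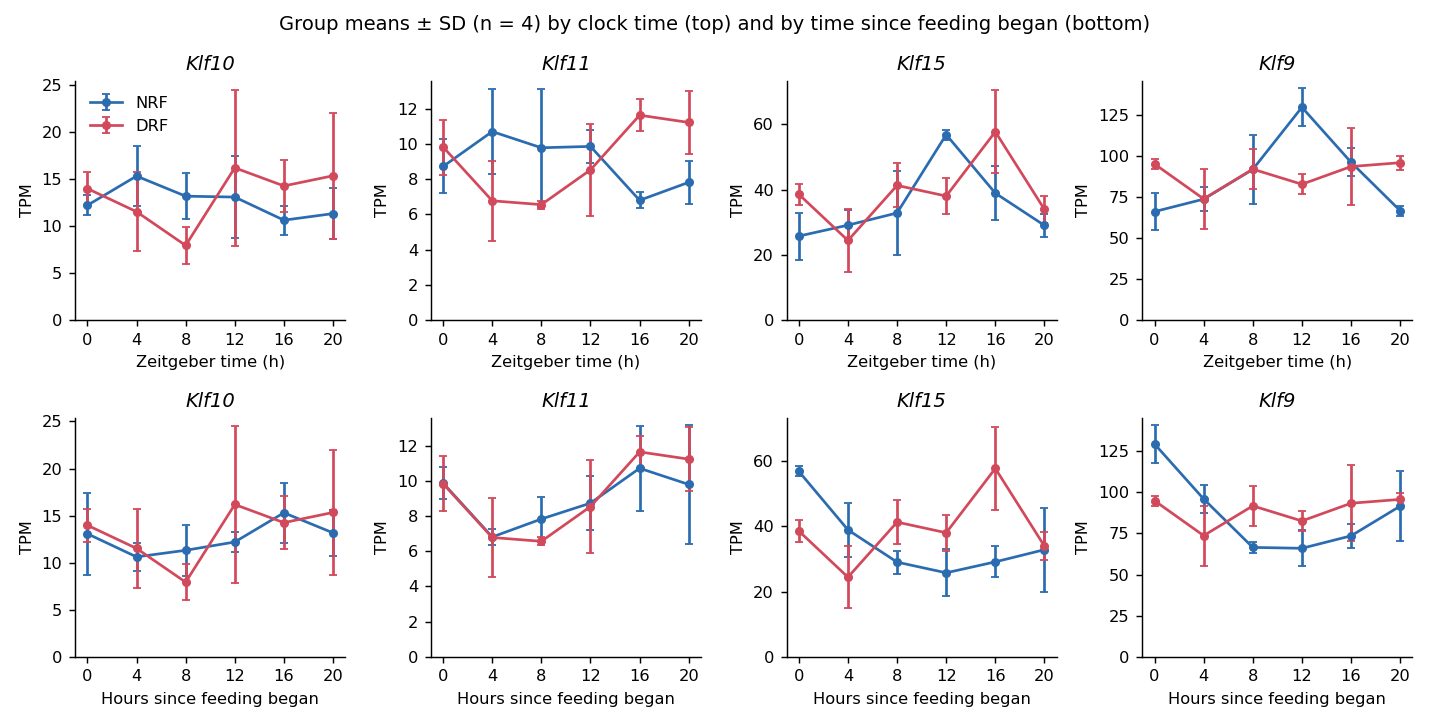
Group means with SD (n = 4, TPM) of Klf10, Klf11, Klf15 and Klf9 at ZT0 to ZT20, plotted by zeitgeber time (top) and by hours since feeding began (bottom, ZT0 for DRF and ZT12 for NRF taken as 0). The Klf11 courses cross in clock time and run close together in food time, while the Klf15 peaks of ZT12 and ZT16 lie close in clock time and far apart in food time.

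Klf4, an endothelial and stress-responsive factor, was rhythmic under both regimens. At ZT8 the DRF hearts read 27.8, 29.3, 35.3 and 38.1 TPM and the NRF hearts 47.0, 41.2, 43.5 and 56.5 TPM. The groups did not overlap, but the log2 difference of -0.52 ± 0.16 did not pass (SE, adjusted p = 0.111). At ZT0 the DRF hearts ran from 42.9 to 87.9 TPM and covered the NRF range of 47.0 to 62.5 TPM, and this difference (log2 0.27, adjusted p = 0.295) passed without DRF ZT0 replicate 1, the lowest DRF heart at that time. The amplitude was 0.21 ± 0.04 under NRF (adjusted p = 0.00118) and 0.38 ± 0.08 under DRF (adjusted p = 0.00159), a difference of 0.17 ± 0.09 whose 95% interval includes 0. Without ZT8 the DRF rhythm and the clock-time difference were lost (adjusted p = 0.0661 and 0.0619), and without ZT16 the NRF rhythm and the clock-time difference were (adjusted p = 0.0506 and 0.0594). The clock-time call was also lost without replicate 2 or 3 of every group (adjusted p = 0.0924 and 0.108), and the NRF rhythm without replicate 2 (0.0575). The peak moved from ZT17.7 to ZT21.3, later by 3.57 h (1.52 to 5.61 h). The curves differed in clock time (adjusted p = 0.0155) and in food time (adjusted p = 2.71e-05).

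Klf2, the flow-responsive endothelial factor, and Klf6 were rhythmic under NRF and did not pass under DRF. At ZT16 the Klf2 values were 137.3, 172.7, 170.1 and 141.7 TPM under NRF and 121.5, 99.2, 130.3 and 116.4 TPM under DRF. All DRF hearts were lower, with a log2 difference of -0.41 ± 0.24 that did not pass (SE, adjusted p = 0.293). The Klf2 amplitude was 0.34 ± 0.08 under NRF, peaking at ZT13.8 (adjusted p = 0.00553), and 0.20 ± 0.11 under DRF (adjusted p = 0.311). The NRF rhythm was lost with an F test over ZT means (adjusted p = 0.0507), without replicate 2 or replicate 3 of every group (0.0667 and 0.0646) and without ZT16 (0.0585). The difference in curves just missed the threshold in clock time (adjusted p = 0.0505) and in food time (adjusted p = 0.0555). It passed in clock time without any 1 of 14 libraries (DRF ZT0 replicate 1, DRF ZT4 replicate 1, DRF ZT8 replicate 4, DRF ZT12 replicate 4, DRF ZT20 replicates 1 and 2, DRF ZT24 replicates 1 and 3, NRF ZT0 replicates 3 and 4, NRF ZT4 replicate 4, NRF ZT8 replicates 1 and 2 and NRF ZT12 replicate 1), with adjusted p down to 0.0189. In food time it passed without any 1 of 12 (DRF ZT0 replicates 2, 3 and 4, DRF ZT8 replicate 4, DRF ZT12 replicate 1, DRF ZT16 replicate 2, DRF ZT20 replicate 2, NRF ZT0 replicates 3 and 4, NRF ZT4 replicate 4, NRF ZT8 replicate 4 and NRF ZT12 replicate 1), with adjusted p down to 0.0268. Both differences also passed with median-of-ratios rescaling (adjusted p = 0.0471 in clock time and 0.0120 in food time), TPM without mitochondrially encoded genes (0.0299 and 0.0290), deposited values (0.0475 and 0.0321) and the score of immediate early genes described with Klf6 in the model (0.0247 and 0.0460). Klf2 hearts also differed within a group, as at NRF ZT8, where they read 90.1, 84.7, 132.1 and 212.5 TPM.

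Klf6 read 51.0, 59.5, 68.9 and 67.7 TPM at ZT12 under NRF and 38.6, 48.5, 54.0 and 54.5 TPM under DRF, with some overlap. Its amplitude was 0.24 ± 0.06 under NRF with a peak at ZT14.5 (adjusted p = 0.00463), and 0.12 ± 0.06 under DRF (adjusted p = 0.249). The Klf6 curves differed in food time (adjusted p = 0.00410) and did not pass in clock time (adjusted p = 0.142). The food-time call was lost without replicate 3 of every group (adjusted p = 0.0995) and without ZT16 (0.0813), and the NRF rhythm with an F test over ZT means (0.0771) and without replicate 3 (0.0906), while the DRF rhythm passed with median-of-ratios rescaling (0.0439). A score of 8 endothelial markers (mean log2 level) averaged 6.31 ± 0.147 in NRF and 6.17 ± 0.152 in DRF hearts, and one of 18 immediate early genes 3.97 ± 0.262 and 3.80 ± 0.222 (SD over 28 libraries). With the endothelial score in the model the Klf2 and Klf6 rhythms under DRF passed (amplitudes 0.28 and 0.18, adjusted p = 0.0400 and 0.0212), and the Klf2 curves differed in clock time (adjusted p = 0.0228) and in food time (adjusted p = 0.000402), the length of the food-time difference being 0.61 against 0.40 without the score. With the immediate early score their DRF amplitudes were 0.04 and 0.06 (adjusted p = 0.887 and 0.601). The Klf4 rhythms passed under both regimens with either score.

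**Figure D5:**
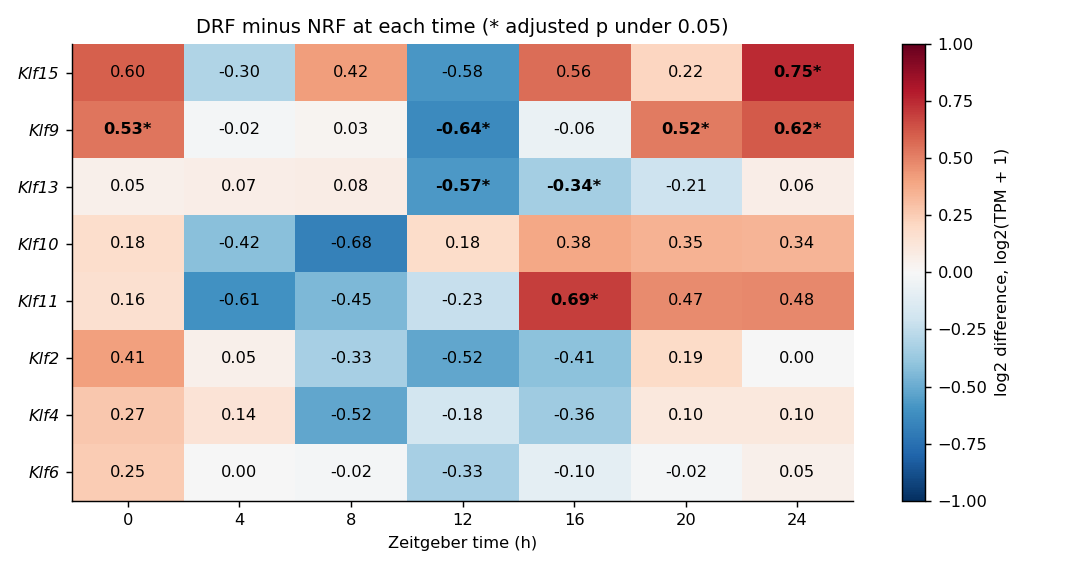
Difference between DRF and NRF group means in log2(TPM + 1) for the 8 genes at 7 zeitgeber times, red where DRF was higher and blue where it was lower, with an asterisk on those past an adjusted p of 0.05. Klf9 passes at ZT0, ZT12, ZT20 and ZT24, Klf13 at ZT12 and ZT16, Klf11 at ZT16 and Klf15 at ZT24.

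Across the 8 genes and 7 times, DRF and NRF hearts did not overlap in 15 of 56 comparisons, 7 with DRF higher and 8 with DRF lower, while 13.2% of all comparisons of a gene at a time did not overlap. At single times the calls were few. Of the 8 genes, 1 was called at ZT0 (Klf9, against 11.5% of genes), 2 at ZT12 (Klf9 and Klf13, against 7.62%) and 2 at ZT16 (Klf11 and Klf13, against 6.92%). At ZT20 it was 1 (Klf9, against 14.9%) and at ZT24 2 (Klf9 and Klf15, against 8.93%). At ZT4 and ZT8 limma called 0 of the 8, against 0.447% and 0.396% of genes, with 1 and 3 at an unadjusted p under 0.05 and 0 with voom weights. Without both libraries that stood apart, ZT4 and ZT8 each had 1 (Klf11), against 3.47% and 3.6%. The mean level over the day differed for 1 of 8, Klf13, against 25.7% of genes.

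Klf13 averaged 18.98 TPM under DRF and 21.01 TPM under NRF, a log2 difference of -0.16 ± 0.04 (SE, adjusted p = 0.00674). The mean differences of the other 7 ran from -0.14 (Klf2) to 0.19 (Klf15, adjusted p = 0.140), and that of Klf15 was 0.11 without both libraries that stood apart (adjusted p = 0.341). Without ZT12, Klf13 was not called (-0.09, adjusted p = 0.204) and Klf15 was (0.36, adjusted p = 0.0252), and without ZT4 both were. Of the 3571 genes that differed in mean level, 236 were higher and 3335 lower under DRF. With libraries rescaled by the median of ratios the split was 767 higher and 1043 lower, the median of all genes moved by 0.05, and Klf13 no longer passed. The share of mitochondrially encoded reads was 21.5 ± 1.46% in the 28 DRF hearts and 20.2 ± 1.57% in the 28 NRF hearts (SD), and Klf13 did not pass in TPM computed without those genes either, nor with the endothelial score in the model (-0.08, adjusted p = 0.406).

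The groups at ZT0 and ZT24 share a clock phase, and between them limma called 0 of 8 genes in either regimen, against 0.0576% of genes under NRF and 0.432% under DRF. At an unadjusted p under 0.05 there were 0 under NRF and 3 under DRF, and voom weights called 0 in each. Klf2 came nearest. Its DRF hearts read 97.8, 178.4, 201.2 and 160.0 TPM at ZT0 and 70.2, 107.7, 66.8 and 129.4 TPM at ZT24 (log2 difference -0.77 ± 0.24, SE, adjusted p = 0.155). The ZT24 hearts at 70.2 and 66.8 TPM were below every ZT0 heart, and those at 107.7 and 129.4 TPM were above the lowest.

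Some courses were alike. Over the 14 group means on the log2 scale, Klf2 and Klf6 correlated at r = 0.91, Klf9 and Klf15 at 0.84 and Klf10 and Klf11 at 0.83, while Klf6 also correlated with Klf15 at 0.69, and Klf4 and Klf13 correlated with no other member above 0.61 and 0.63. These are descriptions over groups that share libraries and regimens, as are the nearest genes that follow, the best 3 of 13879 by the same measure. Klf15 was nearest to Slc10a6, Gdap10 and Pik3r1 (r = 0.91 each), the last a regulatory subunit of phosphoinositide 3-kinase. Klf9 was nearest to Pik3ip1 (0.94), an inhibitor of that kinase, Usp54 (0.93) and H6pd (0.92). Klf13 was nearest to Btbd3 (0.94), C1s1 and Dnaja2 (0.92 each). For Klf11 it was Txnip (0.92), which encodes a sugar-responsive inhibitor of glucose uptake, then Zfp334 and Pnrc1 (0.84 each), and for Klf10 it was 4930430F08Rik (0.84), Vrk2 (0.84) and Klf11. Txnip itself moved its peak from ZT6.98 to ZT18.9. Klf6 was nearest to Tsc22d3 (0.92), which encodes the glucocorticoid-induced leucine zipper protein, then to Klf2 and Col28a1 (0.91 each). Klf2 was nearest to Klf6, Slco2b1 (0.89) and Sik1 (0.87), and Klf4 to Trmt5 (0.85), Mafk (0.85) and Fosl2 (0.82).

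Among the other KLF and SP genes, 8 of 18 were abundant enough to test (Klf3, Klf7, Klf12, Klf16 and Sp1 to Sp4). The counts of this and the following lists stand beside 37.4% of all genes rhythmic under NRF, 32.5% under DRF, 27.6% different in clock time, 41.4% in food time and 25.7% in mean level, where most called genes were lower. Of the 8, 3 were rhythmic under NRF and 2 under DRF, 2 differed in clock time (Sp4 and Sp2, adjusted p = 0.0163 and 0.0290) and 4 in food time, and 3 were lower in mean level. Their median amplitude was 0.09 under NRF and 0.10 under DRF. Of 19 core clock genes, 19 were rhythmic under NRF, 17 under DRF, 18 differed in clock time and 19 in food time. The 4 with the smallest food-time adjusted p moved earlier under DRF, Arntl by 1.71 ± 0.383 h, Nr1d1 by 0.776 ± 0.313 h, Per3 by 2.07 ± 0.413 h and Per2 by 1.498 ± 0.373 h (SE). The fitted peaks of Klf15 and Klf4 were later, though the clock-time difference of Klf15 did not pass with all libraries (adjusted p = 0.112). In mean level 4 clock genes differed, 1 higher and 3 lower.

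Among 16 glucocorticoid-responsive genes tested, 12 were rhythmic under NRF (37.4% of all genes), 10 under DRF (32.5%), 10 differed in clock time (27.6%), 12 in food time (41.4%) and 2 in mean level (25.7%), both higher. Moves in these lists are given the shorter way round 24 h, so a long move earlier is equally a longer move later. Of the 4 with the smallest clock-time adjusted p, the metallothioneins Mt1 and Mt2 moved later by 6.36 and 8.13 h. Pdk4, an inhibitor of glucose oxidation, and the cell cycle inhibitor gene Cdkn1a moved earlier by 7.69 and 2.76 h. Of 13 genes linked to KLF15 in heart or muscle, 8 were rhythmic under NRF, 7 under DRF, 8 differed in clock time, 7 in food time and 3 in mean level (1 higher, 2 lower), the mean-level count being near the share of all genes. Prodh, the first enzyme of proline breakdown, moved later by 4.10 ± 0.585 h (SE). The fatty acid transporter gene Slc27a1, Ehhadh of peroxisomal oxidation and Cd36 moved earlier by 8.49, 8.28 and 4.51 h, again the shorter way round. The potassium channel subunit gene Kcnip2, also on that list, passed in neither regimen (amplitudes 0.06 and 0.04).

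Of 13 TGF-beta responsive genes, 5 were rhythmic in each regimen (37.4% of all genes under NRF and 32.5% under DRF), 6 differed in food time (41.4%) and 5 in mean level (25.7%, here 1 higher and 4 lower). Most of the counts given here were near those shares. Of 8 genes linked to KLF2 and KLF4 in endothelium, 5 were rhythmic under NRF and 4 under DRF, 3 differed in clock time (Nqo1, Edn1 and Tek, adjusted p = 7.08e-05, 0.00351 and 0.0434), 6 in food time and 5 in mean level, all lower. Of 8 endothelial markers 6 were lower in mean level and 0 higher, with a median log2 difference of -0.13 where all genes had -0.05. A 24 h rhythm was called in 1 of these 8 with NRF and in 4 with DRF, and the curves of 3 differed in clock time and of 3 in food time. Among the other marker lists, 3 of 5 fibroblast, 3 of 5 immune and 1 of 4 smooth muscle markers were lower, 1 of 6 cardiomyocyte markers was higher and 1 lower. Atrial markers had a median log2 difference of 1.11 (summed median of 1791 TPM under DRF and 605 TPM under NRF), adipocyte markers 0.28 and blood markers 0.19, differences that were not called for any single gene of these lists. Whether the number of endothelial cells had a part in the Klf2, Klf4 and Klf6 values was not tested. Among 18 immediate early genes, 6 were rhythmic under NRF, 4 under DRF, 5 differed in clock time (the smallest adjusted p being those of Zfp36, Egr3, Ier3 and Btg2), 5 in food time and 5 in mean level, all lower, each count near or below the share of all genes.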

How the data were processed

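RNA-seq values of 56 heart libraries were used. Per the submitters' processing notes, reads were aligned with HISAT2 2.0.5 to mm10 and counted with featureCounts 1.5.0-p3, with a strand setting not given in the sources used here, so reads of antisense transcripts cannot be told apart. The authors named the deposited values TPM, but they follow another unit: a library constant times log2(1 + scaled reads) divided by exon length. Whole reads were recovered from the steps between low values. With GENCODE M21 exon lengths, 22007 genes (96.3%) had all tested values within 0.1 of a whole read. For 835 others, Klf9 among them, a length was searched that met this limit. The 100% of 1278924 values within it is therefore no separate check. Depth was 29656097 to 53656948 reads per library, without molecular identifiers. Linear TPM was recomputed from these reads, and the 13879 genes averaging 1 TPM or more were tested on log2(TPM + 1), a scale that understates changes of low genes.

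Curves and contrasts were fitted with limma 3.58.1 in R 4.3.3 (eBayes with trend), with Benjamini-Hochberg adjustment over all genes tested and a threshold of 0.05. Rhythms were F tests of a 24 h harmonic (cosine plus sine), in place of the study's MetaCycle and CircaCompare, which were not used here. Peaks and their SE came from the delta method, and 95% intervals are normal. In food time the DRF terms were compared with the NRF terms moved by 12 h. The ZT contrasts came from a model of 14 group means. The scripts were tested on simulated data.

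All 8 KLF genes are named, with the 3 nearest genes of each and up to 4 genes of each list by smallest adjusted p. The members and lists were chosen with earlier results of these data known. Same-numbered replicates of the same ZT in the 2 regimens did not deviate together, so no pairing was used. Alternatives were other scalings, filters, pseudocounts, covariates, thresholds and left-out libraries. Leaving out both libraries that stood apart was chosen after seeing the data. The clock-time result of the TGF-beta list is not reported here.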

Additional observations from a re-analysis of the deposited data

Results flagged for a closer look

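The rhythms of 5 of the 8 genes differed between DRF and NRF in a test of the difference itself: Klf9 (adjusted p = 7.56e-06), Klf11 (2.74e-05), Klf13 (0.00189), Klf4 (0.0155) and Klf10 (0.0198). Of all genes 27.6% differed, and leaving out a replicate number in every group gave 2 to 7 of the 8. Of 112 groups of 4 hearts, 9 held a heart far from its other 3 in TPM, where chance gives about 1 in 20. These were 137.4 TPM for Klf2 in NRF ZT4 replicate 4 (others 86.3 to 89.3), 101.7 TPM for Klf2 in NRF ZT12 replicate 1 (168.6 to 179.8) and 59.7 TPM for Klf6 in DRF ZT8 replicate 4 (45.3 to 46.6). For Klf11 they were 10.2 TPM in DRF ZT4 replicate 1, one of the libraries that stood apart (5.32 to 5.89), and 15.3 TPM in DRF ZT24 replicate 1 (9.03 to 9.93). Klf13 had 18.8 TPM in NRF ZT16 replicate 1 (23.8 to 24.3). Klf15 had 29.7 TPM in DRF ZT12 replicate 3 (40.3 to 41.4), 76.8 TPM in DRF ZT16 replicate 1 (50.4 to 52.7) and 23.8 TPM in NRF ZT20 replicate 2 (30.4 to 31.3).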

How the results depend on the processing

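Of the 8 genes, 4 were rhythmic under NRF (7 in the report) with an F test over ZT means, without ZT12 and without ZT16, and 3 differed in clock time (5 in the report) at a threshold of 0.01 and without ZT16. The shares of all genes called were 26%, 24% and 26.2% under NRF and 16% and 21.3% in clock time. A different mean level was called for 0 with median-of-ratios rescaling, TPM without mitochondrially encoded genes, or an immediate early or endothelial covariate, and for 2 without ZT4 (1 in the report). Of all genes 25.7% were called in the report, and 13%, 11.5%, 7.28%, 1.54% and 29.4% in these settings. Without ZT12 it stayed at 1, with Klf15 in place of Klf13 (21.5% of all genes). At ZT0 the count of 1 became 2 with median-of-ratios rescaling, voom weights, the endothelial covariate, without ZT8 and without both libraries that stood apart, 3 with the immediate early covariate and 0 at 0.01 (14.1%, 13.9%, 12.3%, 11.4%, 12.7%, 11.5% and 5.21% of all genes, 11.5% in the report). At ZT4 and at ZT8 it went from 0 to 1 without both libraries (3.47% and 3.6% of all genes). At ZT16 the 2 became 1 with median-of-ratios rescaling, no filter, deposited values, the endothelial covariate, without ZT12 and without ZT20, and 0 at 0.01 (4.34%, 3.01%, 3.09%, 3.51%, 6.79%, 6.64% and 1.74% of all genes, 6.92% in the report). At ZT20 the 1 became 2 with median-of-ratios rescaling, TPM without mitochondrially encoded genes, deposited values and without both libraries, and 0 at 0.01 (17.1%, 12.8%, 14.3%, 16.7% and 6.39% of all genes, 14.9% in the report). At ZT24 the 2 became 1 at 0.01 (3.24% of all genes). The causes were not tested.

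Leaving out 1 of the 56 libraries at a time gave 6 to 8 genes rhythmic under NRF, 2 to 4 under DRF, 5 to 7 different in clock time, 5 to 6 in food time and 1 in mean level. Leaving out a replicate number in all groups gave 4 to 8, 2 to 3, 2 to 7, 4 to 6 and 0 to 1, where 20.5 to 37.9%, 16.6 to 25.9%, 13.3 to 23.6%, 27 to 34.7% and 8.45 to 26.5% of all genes were called. At single times the first gave 0 to 2 at ZT0 and ZT16, 0 to 1 at ZT4 and ZT8, 2 to 3 at ZT12 and 1 to 2 at ZT20 and ZT24, and the second 0 to 3 at ZT12, 0 to 1 at ZT4 and ZT8 and 0 to 2 at the others. From ZT0 to ZT24 in order, the shares of all genes called were 6.56 to 12.4%, 0.202 to 2.68%, 0.0288 to 2.93%, 2.64 to 8.65%, 1.65 to 9.16%, 8.39 to 16.1% and 4.11 to 9.65% without a library, and 4.47 to 10.4%, 0.115 to 4.82%, 0.0216 to 2.27%, 0.634 to 13.5%, 0.821 to 8.29%, 5.33 to 18.9% and 1.48 to 11.2% without a replicate number. Between ZT24 and ZT0 both gave 0.

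Among the rhythm measures, mean levels and called single-time differences, 17 mean-level values (log2, DRF minus NRF) changed sign, none of them called. Single-time differences that were not called were not followed through all alternatives, and without both libraries that of Klf9 at ZT8 went from 0.03 to -0.14. Klf2 was 0.0378 with the immediate early and 0.0465 with the endothelial covariate, Klf4 0.0153 with the endothelial one, and Klf6 0.0526 and 0.0775 with these and 0.0104 with median-of-ratios rescaling. Klf9 was -0.0397 without ZT8. Klf10 was -0.0563 without ZT12, -0.000352 without ZT24, -0.000765 without both libraries, -0.0177 without DRF ZT12 replicate 2 and -0.00566 without NRF ZT12 replicate 4, and ran from -0.0127 to 0.132 when a replicate number was left out (-0.00255 without replicate 4). Klf11 was -0.00406 without ZT16 and -0.0145 without both libraries, and ran from -0.0176 to 0.124 without a replicate number.

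Same-numbered libraries of both regimens at a ZT did not deviate together (28 pairs, median r = -0.03, 1 over 0.1). These pairs cannot tell whether a number shares an effect over the whole series. Over any groups the median r was 0.04 for number 1, 0.008 for 2, -0.006 for 3 and -0.01 for 4. It was -0.0006 for different numbers, and 25.3% of same-number pairs were over 0.1. With the replicate block the ZT16 count was 1 (Klf11, 6.74% of all genes) and that between ZT24 and ZT0 under DRF was 1 (Klf2, 0.562% of all genes). The block also brought the Klf2 differences in clock and food time past the threshold (adjusted p = 0.0181 and 0.0201) and ended the Klf11 rhythm under NRF (0.0573) and the Klf13 difference at ZT16 (0.0516).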
